A study of Mus musculus with 8 samples.

Results

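Pooled RNA of mock cells and cells with a short hairpin against Top1 was compared after 4 days together in 1 dish or apart. The comparison used 4 of the series' 8 expression arrays, chosen by their titles, and covered all 18194 genes that a probe set with a single gene symbol names; 14267 of these were bright enough to test. All the cells were mouse embryonic stem cells of strain 129X1 x 129S1, kept in standard stem cell conditions. In the coculture, shTop1 cells and mock cells shared a dish at 1:4, and in the mix the same lines were grown apart and their RNA was combined at 1:4. Each group held 2 arrays of total RNA, given as biological replicates in the labels, so the knockdown RNA is in the controls too and the groups differ in how the cells were grown. The other 4 arrays of the series hold the same design with a hairpin against p53 (shp53) and serve here as a second pair of groups.

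Some limits of these groups bear on every value. The labels do not say which hairpin sequence or how many clones were used, or whether the replicates were separate cultures, so p-values describe only how these particular samples spread. A mix has a set share of knockdown RNA, whereas the share of shTop1 cells in the coculture after 4 days was not measured. Each array read 1 pool of both lines, so a difference may lie in the shTop1 cells, the mock cells or both, and fewer cells of a type cannot be told apart from less RNA per cell.

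Top1 encodes DNA topoisomerase I, which relaxes the torsion that builds up ahead of polymerases by cutting and resealing a single strand of DNA. The design addresses how sharing a dish changes RNA pooled from mock cells and cells that carry a hairpin against this enzyme's RNA. Mouse embryonic stem cells can move between a naive state, held by LIF and factors such as Klf4, Esrrb and Nanog, and a state primed for differentiation, marked by Fgf5, Otx2 and Zic genes and promoted by FGF signalling through the kinase ERK. Cells at different density also meet different oxygen, nutrients and contacts. When oxygen is low the transcription factor HIF is stabilised and raises genes of glycolysis, of oxygen sensing and of cell survival.

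The deposited values had been scaled to a common level, so similar totals on the 4 arrays say little about their quality. Mean signal was 822 and 813 in the mixes and 896 and 830 in the cocultures, and the log2 ratio of the 3' to the 5' probe set of Actb, a sign of RNA integrity, was 0.49 and 0.66 in the mixes and 0.61 and 0.46 in the cocultures. The median distance between arrays, as the absolute log2 difference over tested genes, was 0.13 between the mixes and 0.20 between the cocultures. Coculture replicate 1 lay 0.17 from either mix, less than its distance from coculture replicate 2. The 6 stem cell markers were all detected, with a summed signal of 52872 to 57703. Of 8 fibroblast markers 4 passed the signal filter. Thy1 read 182 and 157 in the mixes and 208 and 241 in the cocultures, and Pdgfrb 187 and 268 against 310 and 229. Col1a2 read 58.6 and 61.5 against 82.9 and 83, and Col1a1 5.34 and 27.2 against 33.4 and 15.6. Col3a1, Postn, Lum and Dcn did not pass, with signals of at most 41.5. All 6 primitive endoderm markers passed the filter, with a summed signal of 10759 and 10542 in the mixes and 10773 and 11625 in the cocultures. The 3 neural markers summed to 750 to 806. Trophectoderm and mesoderm markers were dim, and the gene T was not analysed here.

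The targeted gene was level across the comparison. Top1 had a signal of 5110 and 5316 on the mix arrays and of 5281 and 5283 on the coculture arrays. The values overlapped, and the log2 difference of coculture minus mix was 0.02 ± 0.09 (SE, n = 2 arrays a group; limma, Benjamini-Hochberg adjusted p = 0.966). A dimmer probe set of the same gene read 270 and 283 in the mixes and 183 and 188 in the cocultures, a log2 difference of -0.54 ± 0.28. On the shp53 arrays that probe set had no such order, with 223 and 219 in the mixes and 258 and 131 in the cocultures. The dimmest probe set of Top1 went the other way on the shTop1 arrays. It read 29.9 and 6.43 in the mixes and 49.9 and 46.3 in the cocultures, a log2 difference of 1 ± 0.4. Which part of the Top1 transcript the hairpin cuts is not stated by the labels.

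No gene passed the adjusted threshold of 0.05 in this comparison. The smallest adjusted p among 14267 genes was 0.281 (limma), and 1170 genes, 8.2%, had an unadjusted p under 0.05, of which 730 (5.12%) were higher and 440 (3.08%) lower in coculture. That split depended on the scaling: with the authors' scaling kept in place of quantile normalization, 569 were higher and 542 lower. Both coculture arrays lay above both mix arrays for 3492 genes (24.5%) and below them for 2418 (16.9%), and the median log2 difference was 0.03 over all genes. These shares are the background for the counts below, where "separate" means that the arrays of the groups do not overlap. With 2 arrays against 2, an exact permutation test of a single gene cannot go below p = 0.333.

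Bright genes differed little and dim genes spread widely. With the tested genes split into 4 bins by signal, the SD of the log2 difference in the brightest bin was 0.156, and 1 gene reached a size of 1 on the log2 scale. In the dimmest bin the SD was 0.492 and 182 genes reached that size. The genes described first are therefore those from the brighter part of the range, the 12 in each direction with the smallest p among genes of upper-half signal with separate arrays. They were chosen on this contrast, so their values are a description.

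**Figure D1:**
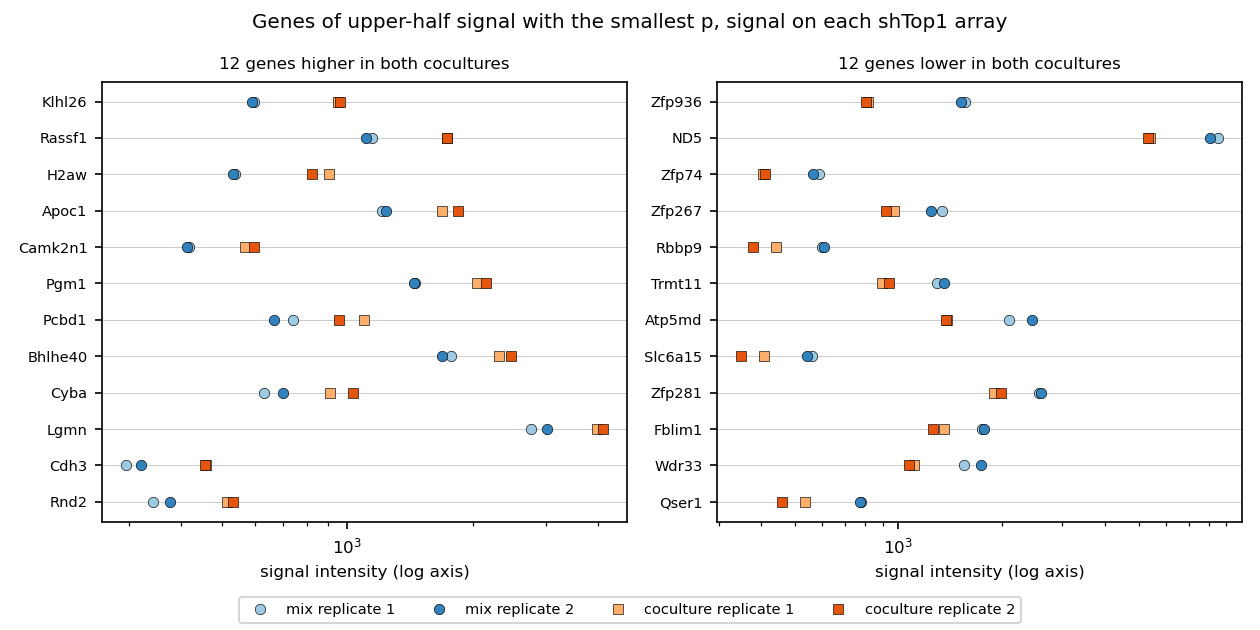
Signal per array on a log axis for the 24 genes of upper-half signal with the smallest p, 12 higher (left) and 12 lower (right) in coculture, with the 2 mix and 2 coculture arrays marked separately. Replicates lie close together for most genes, such as Klhl26 at 599 and 593 in the mixes and 953 and 963 in the cocultures.

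On the higher side, Klhl26, a Kelch-repeat adaptor of a ubiquitin ligase, read 599 and 593 in the mixes and 953 and 963 in the cocultures, a log2 difference of 0.67 ± 0.12 (SE). Rassf1, a scaffold protein linked to the Hippo kinases and microtubules, read 1144 and 1107 against 1733 and 1733. The spread within each group was far smaller than the gap for both genes. H2aw, a histone H2A gene, read 538 and 533 against 907 and 824. Cdh3, which encodes the adhesion molecule P-cadherin, read 295 and 321 against 459 and 456. In these genes too, both cocultures lay above both mixes, as the choice of genes required.

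The other genes higher in coculture have varied roles. Pgm1, phosphoglucomutase, which links glycogen and glycolysis, read 1455 and 1445 in the mixes and 2046 and 2152 in the cocultures, a ratio of 1.44. Its second, much dimmer probe set gave a log2 difference of -0.40 ± 0.37. Lgmn, the lysosomal protease legumain, read 2763 and 3016 against 3967 and 4107. Apoc1, an apolipoprotein, read 1213 and 1239 against 1692 and 1839. All 3 had separate groups, as the choice required, with differences between 0.48 and 0.53 on the log2 scale. Bhlhe40, a transcriptional repressor and known HIF target, read 1773 and 1686 against 2308 and 2470, and Cyba, a subunit of the NADPH oxidase membrane complex, read 631 and 702 against 911 and 1033. Pcbd1, a tetrahydrobiopterin-recycling enzyme and cofactor of HNF1, had a log2 difference of 0.53 ± 0.12, and Camk2n1, an inhibitor of the kinase CaMKII, one of 0.47 ± 0.09. A second, much dimmer probe set of Camk2n1 gave -0.42 ± 0.36.

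On the lower side the widest gap among the 12 genes belonged to Zfp936, a zinc finger gene, with 1561 and 1526 in the mixes and 815 and 808 in the cocultures. Its log2 difference was -0.91 ± 0.13 and its adjusted p was 0.435 (limma). ND5, a mitochondrially encoded subunit of respiratory complex I, read 8518 and 8084 against 5384 and 5320, a log2 difference of -0.63 ± 0.11. Both were among 3 genes that passed the threshold when limma was run with trended and robust variances. The third was Rps27, described below. Atp5md, a small subunit of the ATP synthase, read 2099 and 2454 against 1390 and 1373, so 2 genes of oxidative phosphorylation stood on this side. The respiratory chain list as a whole did not share that direction: 23 of its 36 tested members lay above 0, with a median of 0.04, beside 55.6% above 0 among all genes, and the median was 0.199 under median centring.

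Zinc finger genes recurred among the lower genes. Zfp74 read 590 and 566 in the mixes and 405 and 410 in the cocultures. Zfp267 read 1339 and 1246 against 971 and 922. Zfp281, a repressor known for a role in exit from the naive state, read 2564 and 2593 against 1899 and 1985. The groups were separate in each case, as the choice required, with log2 differences of -0.49, -0.44 and -0.41. A dimmer probe set of Zfp267 gave 0.14 ± 0.16. Qser1, a glutamine- and serine-rich protein known to protect regulatory DNA from methylation together with TET1, read 778 and 772 against 537 and 458, and its 3 probe sets gave -0.63, -0.77 and -1.03. Tet1 itself, the methylcytosine dioxygenase, read 7139 and 7041 against 5721 and 5459 in its brightest probe set, but its other probe sets gave -0.25, -0.01 and 0.32. Rbbp9, a serine hydrolase, read 601 and 610 against 442 and 377. Trmt11, a tRNA methyltransferase subunit, and Slc6a15, a transporter of neutral amino acids, had log2 differences of -0.52 and -0.53. Fblim1, a filamin-binding adhesion protein, had one of -0.43, and Wdr33, part of the mRNA polyadenylation complex, one of -0.58.

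The genes with the smallest p over the whole range were dim. Oosp3 read 6.72 and 6.32 in the mixes and 48.4 and 62.7 in the cocultures, Aldh3b2 18.1 and 21 against 74.3 and 71.2, and Hoxa11os 12.3 and 3.49 against 58.1 and 75.1. Hes7, an effector of Notch in the segmentation clock, read 8 and 10.3 against 66.7 and 122. For all 4 genes the mix values lay under the filter signal of 22.1, so a high reading elsewhere carried them into the test. On the log2(signal + 16) scale the 4 differences were 1.66, 1.32, 1.81 and 2.09, which understates changes at such low signal. Rps27, a ribosomal protein, read 157 and 165 against 677 and 706, a log2 difference of 2.00. The 33 tested ribosomal proteins had a median of -0.01, which was 0.303 under median centring and 0.244 under the authors' scaling.

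Genes of the primed epiblast were lower in coculture without exception in sign. All 12 members had a log2 difference below 0, with a median of -0.387, and 11 of the 12 had separate arrays, beside the background of 16.9%. At an unadjusted p under 0.05 there were 4 lower members and none higher, beside 3.08% of all genes, and none passed the adjusted threshold. The list was chosen with such results in view, so the counts are a description.

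Fgf5, the FGF ligand by which the primed epiblast is usually recognised, read 119 and 97.4 in the mixes and 22.6 and 26.1 in the cocultures. Its log2 difference was -1.62 ± 0.19 (adjusted p = 0.362, limma), the widest gap of the list, although the gene is dim in both groups and a second probe set lay under the filter. Zic5, a zinc finger factor of the early neural plate, read 1231 and 1116 against 980 and 664. Its other probe sets gave -0.50 and -0.40 beside -0.53 for the brightest, so the 3 had 1 direction. Lef1, a Wnt effector of the epiblast, read 832 and 900 against 716 and 561, and Sox3, a SOXB1 factor, read 225 and 188 against 147 and 154. A second, much dimmer probe set of Sox3 went the other way, from 39.2 and 18.6 to 46.8 and 68.7.

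The other 8 primed members had log2 differences between -0.53 and -0.18. Pou3f1 (Oct6), a POU factor of the epiblast, read 748 and 953 against 724 and 569, and Cdh2, N-cadherin, 214 and 203 against 190 and 101. For both, coculture replicate 2 was the lower array. Otx2, which drives the naive cells toward the primed state, read 1858 and 1756 against 1723 and 1466. The de novo methyltransferases were closer: Dnmt3b read 10966 and 11494 against 9741 and 9911, and Dnmt3a 2203 and 2340 against 1946 and 2052. Without coculture replicate 2 the list's median was -0.218, without coculture replicate 1 it was -0.501, and across all the single arrays left out at most 1 member lay above 0. On the shp53 arrays the median was -0.332, with none of the 12 above 0.

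**Figure D2:**
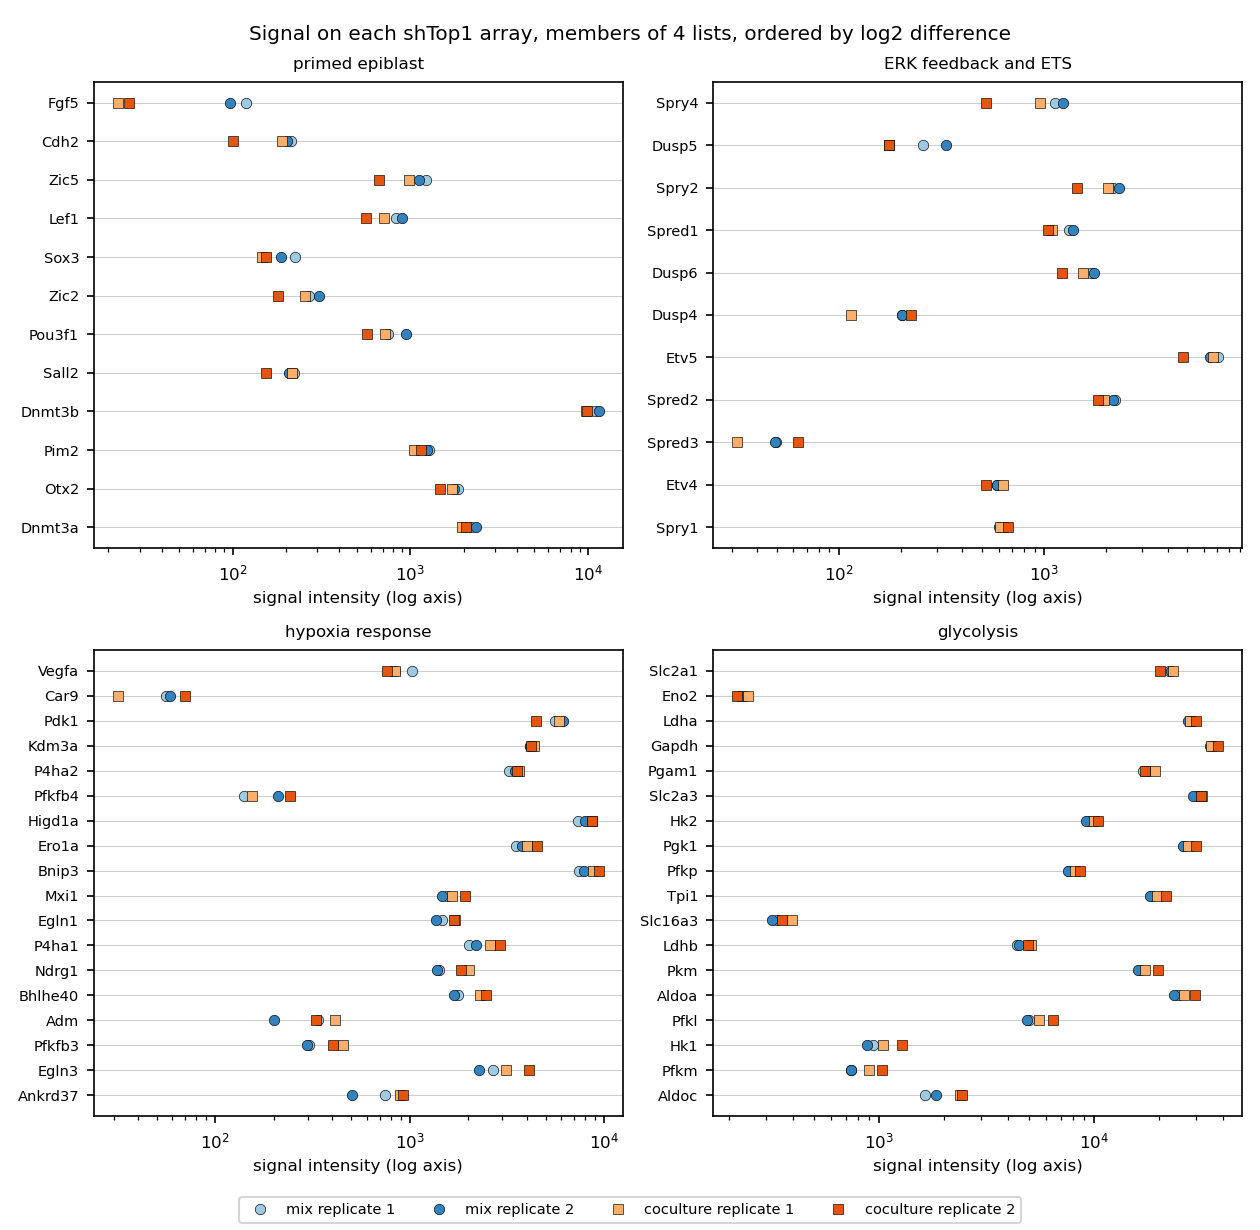
Signal per array, on log axes, for the tested members of 4 lists (primed epiblast, ERK feedback and ETS, hypoxia response, glycolysis), ordered within each panel by the log2 difference. The coculture arrays lie below the mix arrays for 11 of 12 primed members and above them for 13 of 18 hypoxia members, with the gap narrow for most.

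Naive and core pluripotency factors showed no shared direction. Of 14 naive factors 9 lay above 0, 3 were separate on each side, and their median was 0.02. Nanog read 7742 and 7717 in the mixes and 8239 and 9608 in the cocultures, whereas Zfp42 (Rex1) read 12475 and 13570 against 12419 and 9989. Gbx2, a homeobox factor downstream of LIF, was the member with the smallest p, at 554 and 560 against 414 and 359. Its log2 difference was -0.51 ± 0.19. Pou5f1 (Oct4), the core factor, read 12085 and 12492 against 14351 and 14159, a difference of 0.21 with separate arrays, and Sox2, its partner, read 13234 and 13447 against 13218 and 10105.

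Feedback inhibitors of ERK and the ETS factors, which are transcribed when FGF and ERK are active, were mostly lower. The list's median was -0.307, 10 of 11 tested members lay below 0, and 6 of 11 were below with separate arrays. Spred1, a membrane inhibitor of Ras, read 1321 and 1383 in the mixes and 1092 and 1045 in the cocultures and was the single member with an unadjusted p under 0.05. Spred2 read 2211 and 2165 against 1950 and 1840. Those 2 were tight in both groups, and so was Spry1, a Sprouty inhibitor and the 1 member above 0, at 655 and 600 against 609 and 668. Other Sprouty genes spread in coculture. Spry4 read 1136 and 1238 against 952 and 524, and Spry2 2157 and 2319 against 2059 and 1452, with replicate 2 far under replicate 1 in coculture. Dusp6, the ERK phosphatase, read 1691 and 1743 against 1543 and 1225. Etv5, an ETS factor, read 7041 and 6419 against 6673 and 4782, so its groups overlapped. Without coculture replicate 2 the list's median was -0.165. With shp53 it was -0.287, and 1 of 11 members lay above 0. A second bright probe set of Spry4 gave -0.77, and its remaining probe sets gave 0.03 and 0.32.

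Ligands and receptors of the FGF family themselves were spread around 0, with a median of -0.07 over 8 tested members (0.057 without coculture replicate 1). The median was 0.145 with every probe set by itself and 0.022 with a gene's probe sets averaged. Fgf4, a ligand, gave 0.12 in its brightest probe set and 0.15, 0.18 and 0.75 in the others. Immediate early genes, which follow ERK and stress kinases within minutes, went both ways. Fos read 1752 and 1908 in the mixes and 2606 and 3300 in the cocultures, a log2 difference of 0.68 ± 0.16, and Ier3 read 3606 and 3507 against 4831 and 4676. Egr1, a direct ERK target, lay on the other side at 4598 and 5308 against 3360 and 4098. The list as a whole had 9 of 16 members above 0.

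Of 13 Wnt effectors and targets 11 lay below 0 (median -0.198), but 3 of the 13 had separate arrays, beside 16.9%. Ccnd1, cyclin D1, read 2718 and 2646 in the mixes and 2309 and 2135 in the cocultures. Sp5, a direct target of beta-catenin, was dim, at 88.3 and 67.7 against 18.3 and 40.5. Axin2, the usual feedback readout of Wnt, read 201 and 230 against 194 and 177. Its difference of -0.20 ± 0.17 was about the size of its error. The list's median moved to -0.093 without coculture replicate 1 and to -0.107 without mix replicate 2, and it was 0.029 on the shp53 arrays.

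Among Nodal and BMP genes 11 of 15 lay below 0, with a median of -0.166 and 7 separate below. Lefty1, a Nodal antagonist and target, read 3359 and 3377 against 2548 and 2948, and Nodal 1428 and 1438 against 1318 and 1235. The members with an unadjusted p under 0.05 lay on the higher side instead: Bmp7, a BMP ligand, at 90.3 and 122 against 191 and 154, and Smad6, an inhibitor of BMP signalling, at 94.8 and 114 against 138 and 167. Without coculture replicate 2 the list's median was -0.082. With shp53 it was -0.045, and 7 of 15 members lay above 0.

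Genes of the response to low oxygen were higher in coculture. Of 18 tested members 15 lay above 0, with a median log2 difference of 0.243, and 13 were separate above and none below, beside 24.5% and 16.9% of all genes. At an unadjusted p under 0.05 there were 6 members higher, beside 5.12%, and none lower. No member passed the adjusted threshold.

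Ndrg1, a stress-response gene strongly induced by HIF, read 1421 and 1375 in the mixes and 2028 and 1826 in the cocultures, and its 5 probe sets gave log2 differences of 0.46 to 0.61. Egln3, a prolyl hydroxylase that marks HIF for degradation and is itself a HIF target, read 2692 and 2276 against 3115 and 4114. Its sister Egln1 read 1471 and 1370 against 1705 and 1685. All 3 had separate groups. Ankrd37, a small ankyrin-repeat protein and HIF target, read 750 and 505 against 896 and 920. Pfkfb3, which makes the activator of phosphofructokinase, read 303 and 295 against 454 and 404. Bnip3, a mitophagy receptor, read 7419 and 7897 against 8732 and 9374, so a gap of 0.24 on the log2 scale was seen in a bright gene as well. P4ha1, a collagen prolyl hydroxylase, read 2027 and 2183 against 2591 and 2923.

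Not every HIF target followed. Vegfa, the angiogenic factor, read 1031 and 842 in the mixes and 843 and 760 in the cocultures, and Pdk1, which holds pyruvate back from mitochondria, read 5569 and 6119 against 5886 and 4490. Car9, a carbonic anhydrase, was dim at 56 and 58.4 against 31.5 and 69.9. These 3 had log2 differences of -0.22, -0.18 and -0.20 and overlapping groups. With each shTop1 array left out in turn the list's median stayed between 0.19 and 0.31 and 14 to 16 members lay above 0. On the shp53 arrays the median was 0.222, with 15 of 18 above 0.

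The promoters of the hypoxia members with an unadjusted p under 0.05 show the letters that HIF recognises. RefSeq windows from 250 bases before to 50 after a start site were searched on both strands for ACGTG, the core of the HIF element. It occurred in 12 of 16 hypoxia genes with a window (75%), in 12 of 17 glycolysis genes (70.6%), and in 3262 of 11468 tested genes with a window (28.4%). The hypoxia list holds known HIF targets, so its share describes the list and says nothing about the coculture. Matches were not compared between members that were higher and members that were not. Of the 6 members with that p, Bhlhe40 and Ndrg1 had no window in the table used here, and the other 4 had a match. A window of each is printed because these genes lead the list. It runs 5' to 3' on the gene's strand in GRCm38.p6, with ACGTG or its reverse complement in capitals.
Ankrd37, chr8:45999801-46000100, minus strand: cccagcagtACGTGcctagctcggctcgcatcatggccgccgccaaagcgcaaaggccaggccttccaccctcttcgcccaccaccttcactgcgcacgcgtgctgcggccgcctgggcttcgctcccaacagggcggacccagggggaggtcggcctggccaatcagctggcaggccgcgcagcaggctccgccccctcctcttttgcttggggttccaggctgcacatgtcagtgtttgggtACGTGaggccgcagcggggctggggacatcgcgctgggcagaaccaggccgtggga
Bnip3, chr7:138909457-138909756, minus strand: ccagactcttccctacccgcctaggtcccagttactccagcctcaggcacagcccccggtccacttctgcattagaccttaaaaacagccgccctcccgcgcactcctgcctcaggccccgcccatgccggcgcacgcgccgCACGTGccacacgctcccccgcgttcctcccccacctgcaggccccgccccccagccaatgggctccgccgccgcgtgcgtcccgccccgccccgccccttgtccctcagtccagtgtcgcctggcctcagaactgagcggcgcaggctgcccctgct
Egln3, chr12:54203825-54204124, minus strand: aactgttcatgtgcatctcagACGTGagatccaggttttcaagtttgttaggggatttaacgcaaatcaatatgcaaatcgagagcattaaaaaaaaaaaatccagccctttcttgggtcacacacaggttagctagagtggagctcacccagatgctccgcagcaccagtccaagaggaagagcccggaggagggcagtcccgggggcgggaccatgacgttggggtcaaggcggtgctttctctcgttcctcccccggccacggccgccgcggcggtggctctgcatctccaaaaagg
Pfkfb3, chr2:11553880-11554179, minus strand: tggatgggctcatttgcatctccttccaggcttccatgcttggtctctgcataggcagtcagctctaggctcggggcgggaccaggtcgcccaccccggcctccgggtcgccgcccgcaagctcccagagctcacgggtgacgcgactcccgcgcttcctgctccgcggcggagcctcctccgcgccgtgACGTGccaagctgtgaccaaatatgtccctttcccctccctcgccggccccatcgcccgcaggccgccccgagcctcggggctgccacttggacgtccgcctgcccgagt
The matches began 241 and 6 bases before the start site in Ankrd37, 229 in Egln3 and 60 in this window of Pfkfb3. Another window of Pfkfb3, not printed, had matches that began 53 and 52 bases before its start site. In Bnip3 the core lies within the palindrome CACGTG and so matches on both strands. A match is only a run of letters, and binding was not measured.

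Glycolysis went the same way by smaller steps. Of 18 tested members 17 lay above 0, 14 had separate arrays above and none below, and the median was 0.153. Aldoc, an aldolase, read 1642 and 1836 in the mixes and 2393 and 2443 in the cocultures, although a second, dim probe set gave -0.53. Pfkm and Pfkl, subunits of phosphofructokinase, read 745 and 742 against 899 and 1033, and 4970 and 4867 against 5577 and 6427. Those 3 had an unadjusted p under 0.05. Some members differed by less than their error. Gapdh read 35056 and 34750 against 35137 and 37776, and Ldha 28241 and 27521 against 27887 and 29850. Slc2a1, the main glucose transporter, read 22358 and 22794 against 23225 and 20293. The size rested on the scaling, with a median of 0.364 under median centring and 0.304 under the authors' scaling alone. With shp53 the glycolysis median was 0.148, and 17 of 18 members lay above 0.

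Of 22 lysosomal genes 19 lay above 0, 11 were separate above and none below, and their median was 0.153. Hexa, a hexosaminidase, read 3638 and 3531 in the mixes and 4326 and 4765 in the cocultures. Glb1, beta-galactosidase, read 991 and 966 against 1162 and 1252, and Ctsl, cathepsin L, 19989 and 18970 against 22851 and 23464. Lamp2, a membrane protein of lysosomes, was the exception in size, at 2997 and 2437 against 1866 and 2618. The palindrome CACGTG, which holds the core of the element bound by TFEB and also contains the letters ACGTG, occurred in the windows of 8 of 19 lysosomal genes (42.1%) and of 1305 of 11468 tested genes (11.4%). That share describes the list and was not compared between members that were higher and members that were not. With a gene's probe sets averaged, in place of the brightest, the list's median was 0.072, and without coculture replicate 2 it was 0.098. The shp53 arrays gave a median of 0.125, with 20 of 22 members above 0.

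Autophagy genes were less uniform, with 9 of 13 above 0 and a median of 0.136 (0.090 without coculture replicate 2). Sqstm1, the cargo receptor p62, read 3002 and 2668 against 3297 and 3717, and Becn1, of the initiating lipid kinase complex, read 2447 and 2728 against 2307 and 2110. Of 17 genes of cholesterol synthesis 15 lay above 0 and 11 were separate above (median 0.172). Stard4, a sterol carrier, read 864 and 880 against 1021 and 1106, and Pmvk, phosphomevalonate kinase, 847 and 967 against 1178 and 1122. Hmgcs1, an early enzyme of the pathway, lay on the other side at 9826 and 9953 against 8952 and 9399. The cholesterol median was 0.091 without coculture replicate 2. It was 0.156 on the shp53 arrays, where 15 of 17 members lay above 0.

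**Figure D3:**
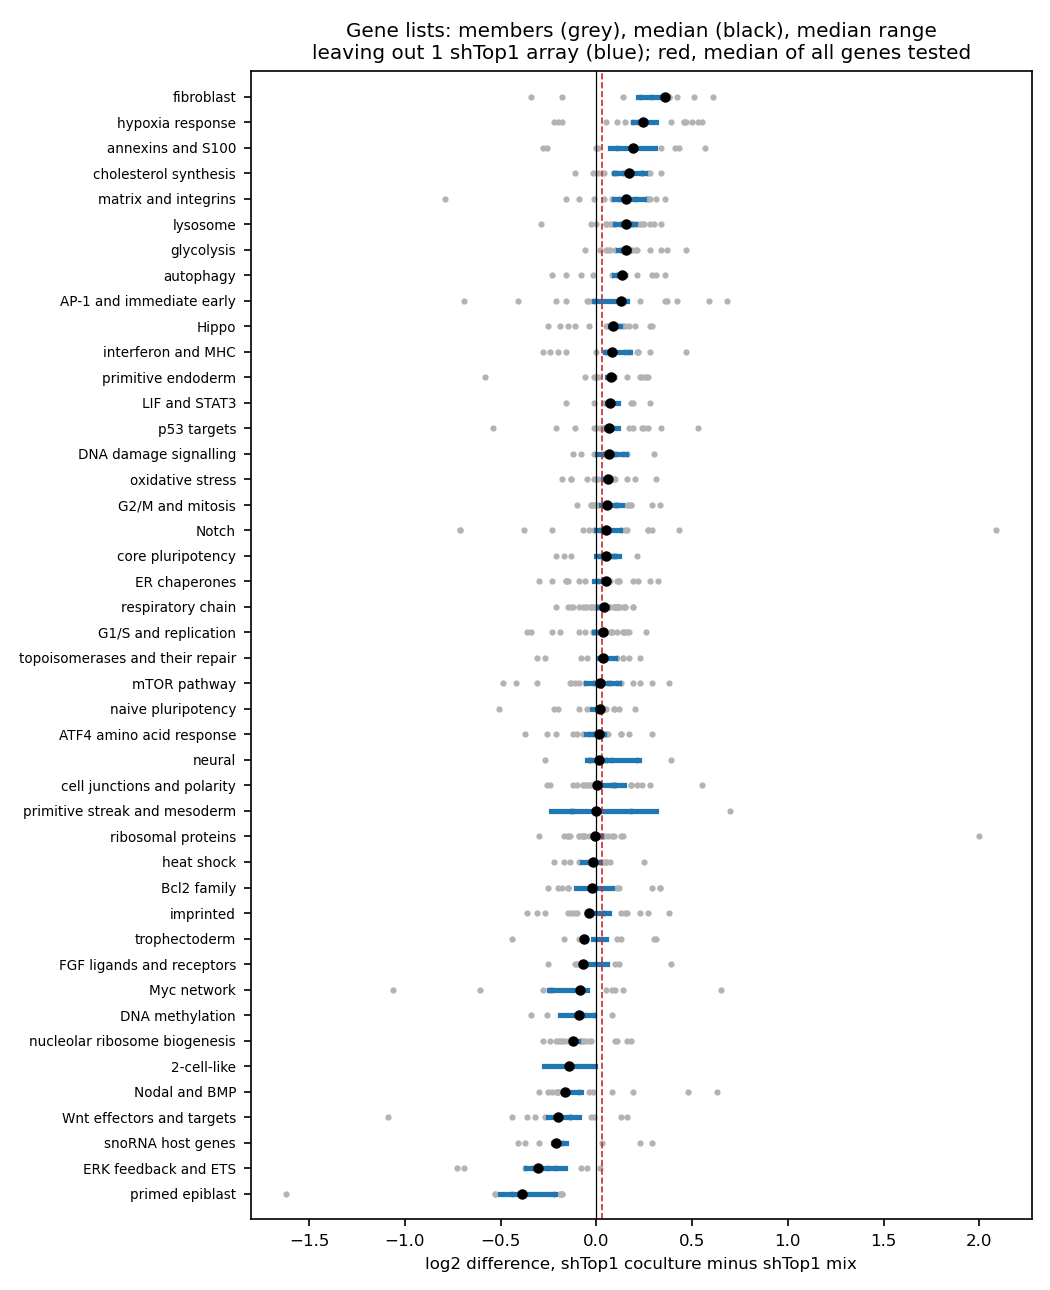
Log2 differences of coculture minus mix for the tested members of each gene list (points), with the list's median (black), its range when 1 shTop1 array is left out (blue) and the median of all 14267 genes (dashed). Primed epiblast (-0.387) and ERK feedback and ETS (-0.307) have the lowest medians; fibroblast (0.359) and hypoxia response (0.243) have the highest.

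Members of the Myc network had no shared direction. Myc, the growth regulator, read 503 and 516 in the mixes and 266 and 209 in the cocultures, a log2 difference of -1.06 ± 0.44. The error, pooled over all groups, is wide, and the shp53 cocultures read 170 and 482. Mycn, a relative of Myc, read 8074 and 8066 against 7476 and 5886. Mxd3, a Max partner that opposes Myc, read 245 and 221 against 325 and 431. Mxd1, of the same family, lay on the other side and was dim, at 55.2 and 54.3 against 31.5 and 29.2, a log2 difference of -0.61 ± 0.18. The Myc network list had 5 of 10 members below 0. Of 21 nucleolar ribosome biogenesis genes 17 lay below 0 and 13 were separate below (median -0.121), but none had an unadjusted p under 0.05. Ncl, nucleolin, read 32692 and 32451 against 29423 and 30486, and Nop58, a snoRNP core protein, 8137 and 8122 against 7311 and 6449. Under median centring the list's median was -0.026.

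Host genes of snoRNAs split. Snhg3 read 2656 and 2671 in the mixes and 2206 and 1813 in the cocultures, and Snhg5 3471 and 3719 against 2963 and 2613. Zfas1 and Gas5, also hosts, lay on the higher side, at 2622 and 2520 against 3130 and 3148, and 8330 and 7779 against 8461 and 10480. Over 9 tested hosts the median was -0.21, beside -0.011 on the shp53 arrays.

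Targets of p53 gave a mixed picture. Of 20 tested p53 targets 16 lay above 0, with a median of 0.068 (0.113 without coculture replicate 1) and 8 separate above. The shp53 arrays gave a median of 0.109, also with 16 of 20 above 0. Cdkn1a (p21), the cell cycle inhibitor, read 1461 and 1581 in the mixes and 1908 and 2539 in the cocultures, and its second probe set gave 0.66 beside 0.53. Xpc, a damage sensor of nucleotide excision repair, read 330 and 305 against 413 and 400. Sesn2, an inhibitor of mTORC1, read 875 and 984 against 602 and 670, while its second probe set gave 0.02. The apoptotic effectors Bbc3 (Puma) and Pmaip1 (Noxa) had differences of 0.27 ± 0.15 and 0.06 ± 0.16. The p53 transcript was not analysed here.

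The mTOR list lay around 0, with 11 of 21 members above. Ddit4 (Redd1), an mTORC1 inhibitor raised by low oxygen and by p53, read 9427 and 8657 in the mixes and 11719 and 11741 in the cocultures. Rragd, a Rag GTPase, read 640 and 579 against 509 and 401. The pair had unadjusted p-values of 0.0231 and 0.0397. The type II topoisomerases lay on opposite sides. Top2a, the replication-linked enzyme, read 11880 and 11835 against 14024 and 13866 in its brightest probe set, a log2 difference of 0.23 with separate arrays (unadjusted p = 0.0477 in limma's fit across all genes), while a dimmer one gave -0.67. Top2b read 1174 and 1055 against 1033 and 770, a difference of -0.31 ± 0.19. DNA damage signalling genes had a median of 0.067 and no member with an unadjusted p under 0.05, and the median was 0.003 without coculture replicate 2, 0.010 without mix replicate 2, 0.101 without mix replicate 1 and 0.153 without coculture replicate 1. The lists of the amino acid response, heat shock, the Bcl2 family and G1/S genes had medians between -0.023 and 0.037, and under median centring the heat shock median was 0.164.

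Matrix, annexin and fibroblast genes were higher in several members. The fibroblast list had the highest median (0.359), and 10 of 12 tested members above 0 and 7 separate above, but 7 of its 19 genes lay under the signal filter and the tested ones were dim. Cxcl12, a chemokine, read 101 and 89.8 in the mixes and 154 and 131 in the cocultures, Fbln2, a matrix protein, 53 and 55.4 against 83.9 and 72.1, and Thy1, a surface glycoprotein, 182 and 157 against 208 and 241. Tagln and Acta2, actin-binding and contractile genes, lay on the other side at 230 and 179 against 174 and 142, and 266 and 281 against 245 and 233. The summed signal of the 8 fibroblast markers was 477 and 593 in the mixes and 669 and 649 in the cocultures, and its part in these results was not tested. The list's median was 0.218 without coculture replicate 1 and 0.009 with a gene's probe sets averaged.

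Anxa2, a calcium-dependent membrane-binding protein, read 4769 and 4631 in the mixes and 5932 and 6733 in the cocultures. Anxa5 read 968 and 973 against 1233 and 1242, and S100a1, a calcium sensor, 193 and 199 against 336 and 267. Those 3 and Anxa6 had an unadjusted p under 0.05. S100a10, the partner of Anxa2, lay on the other side at 4880 and 5252 against 4521 and 3828. The list's median of 0.19 was 0.069 without mix replicate 2, 0.304 without mix replicate 1, 0.116 without coculture replicate 1 and 0.012 with a gene's probe sets averaged. Of 16 matrix and integrin genes 12 lay above 0; Itgb1, the common beta integrin, read 1963 and 1877 against 2241 and 2392, and Hspg2, perlecan, 738 and 796 against 941 and 967. Among Hippo genes, Nf2 (merlin) read 1073 and 1122 against 1328 and 1371, and Ankrd1, a target of Yap1, 441 and 426 against 557 and 505.

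The 24 bright genes chosen on these arrays were then read on the shp53 arrays, whose differences the choice did not use (their spread enters the pooled error). All 24 had the same sign there, beside 79.2% of the 1878 higher and 77.6% of the 1357 lower genes of upper-half signal with separate shTop1 arrays, and 63.1% of all tested genes. The labels do not say whether the shTop1 and shp53 mixes shared mock RNA. The differences were smaller with shp53 for 23 of the 24, with medians of 0.26 against 0.53 for the 12 higher and -0.39 against -0.54 for the 12 lower. Choosing genes for small p on the shTop1 arrays by itself makes smaller shp53 values likely. The shp53 value was also closer to 0 for 1358 of those 1878 higher and 994 of those 1357 lower genes. Among all 14267 tested genes it was closer to 0 for 7455.

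Some genes had separate groups in both knockdowns. Camk2n1 read 422 and 436 in the shp53 mixes and 607 and 633 in the shp53 cocultures, a log2 difference of 0.52 beside 0.47 with shTop1. ND5 read 8779 and 7823 against 5974 and 5596, -0.52 beside -0.63. Zfp936 read 1365 and 1340 against 836 and 1071, -0.51 beside -0.91. The first pair differed little between the knockdowns, and Zfp936 by -0.41 (unadjusted p = 0.0751 in limma's fit across all genes). Others were nearer 0 with shp53: Cdh3 read 441 and 357 against 429 and 411, and Rassf1 1390 and 1468 against 1709 and 1471. The difference between knockdowns had an unadjusted p of 0.0385 for Cdh3 and 0.0234 for Rassf1 (limma). Cdh3, Rassf1 and Zfp936 were chosen on the shTop1 difference, which is part of this contrast, so their p-values here lean small. No gene passed after adjustment over 14267 genes, where the smallest adjusted p was 0.292 (limma) and 614 genes (4.3%) had an unadjusted p under 0.05.

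**Figure D4:**
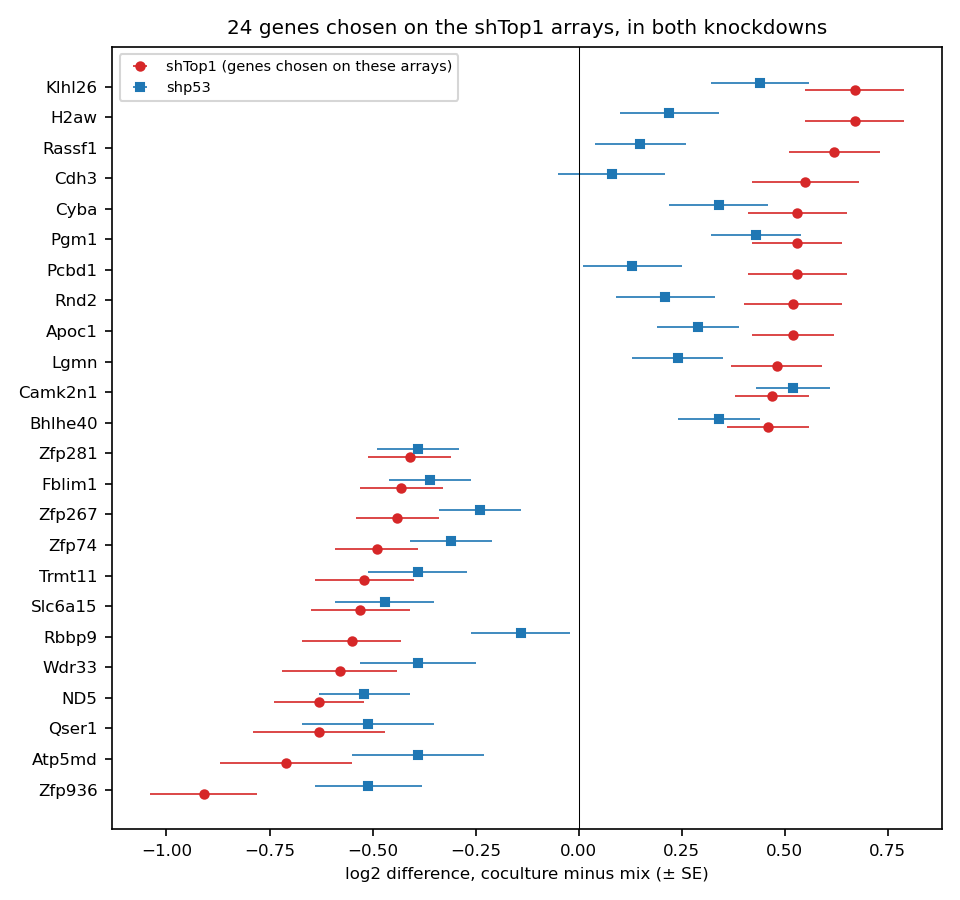
Log2 difference of coculture minus mix, with its SE, for the 24 bright genes in shTop1 (circles) and shp53 (squares). The genes were chosen on the shTop1 arrays; all 24 shp53 values have the same sign, and 23 are closer to 0.

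The genes with the smallest p for that difference were dim. Hes7 read 40.2 and 51.9 in the shp53 mixes and 15.1 and 12 in the shp53 cocultures, opposite to the shTop1 arrays. Batf, an AP-1 family factor, read 5.76 and 14.5 in the shTop1 mixes and 41.8 and 62.1 in the shTop1 cocultures, but 66 and 105 against 5.15 and 6.27 with shp53. Dscaml1, a neural adhesion molecule, read 34.8 and 27.5 against 11 and 12.9 with shTop1 and 24 and 17.8 against 62 and 69.7 with shp53. Each of these genes lay under the filter signal in at least 1 group. Fgf5 was lower in both, with 119 and 80.7 against 66.7 and 76.3 in shp53.

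Probe sets of 1 gene gave a further view of the same RNA. Among 6673 genes with at least 2 probe sets above the filter, the second probe set had the sign of the brightest for 56.2%. Among the 461 of them with an unadjusted p under 0.05 in the brightest, 314 had the same sign (68.1%) and 43 also had an unadjusted p under 0.05 in the second. Probe sets can lie in different transcript ends, and each reads its own target. Wdr33 was the clearest disagreement among the named genes: its brightest probe set gave -0.58, and its others gave 0.44, 0.04, -0.33, 0.22, 0.49 and 0.47. Rassf1 gave 0.62 in the brightest, 0.27 in the next and -0.53 in a dim one, and Fblim1 gave -0.43 and -0.02. Zfp281 gave -0.41 and -0.44.

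**Figure D5:**
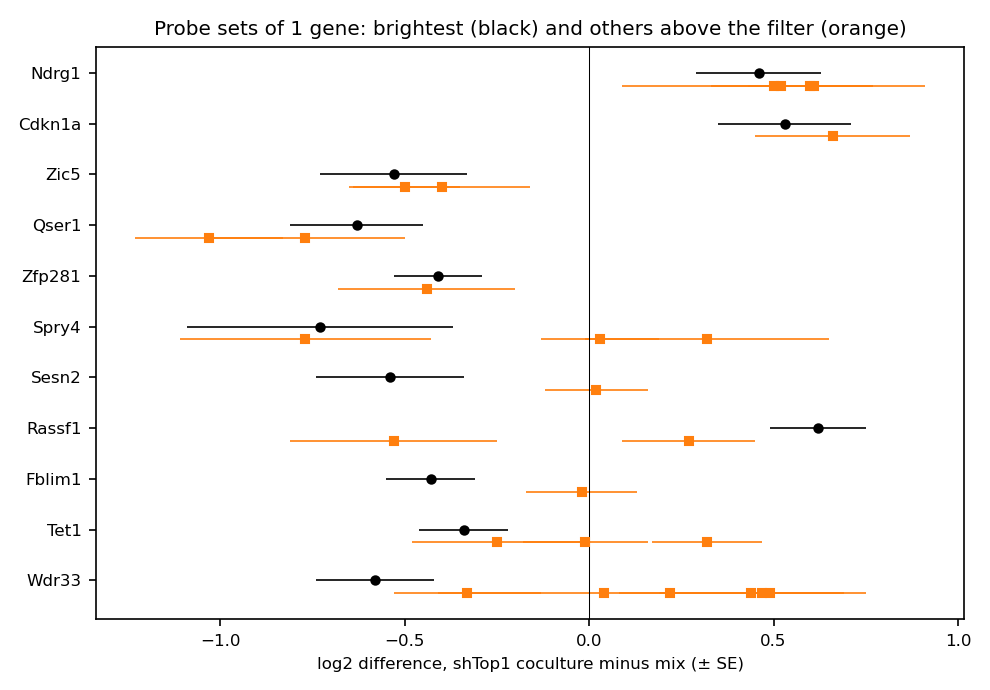
Log2 difference of coculture minus mix for each probe set above the filter of 11 genes, with the brightest in black and the others in orange, and its SE. The probe sets of Ndrg1, Zic5 and Qser1 lie on 1 side of 0, whereas those of Wdr33 lie on both.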

How the data were processed

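The deposited values are linear signal intensities of the authors, 1 per probe set and array, on a mouse 3' expression platform of 45101 probe sets. On every array their mean without the highest and lowest values was about 500.003, so they had been scaled to a common level, as read from the values. No source used here names the software behind them. Precision is limited by the number of arrays.

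Of the probe sets, the platform annotation gave 1 gene symbol to 34958, several to 932, and did not list 9211, which stayed unnamed. After quantile normalization values were taken as log2(signal + 16), so differences of dim genes are understated. A gene was read from its brightest probe set and tested where its mean was at least 22.1, the 30th percentile over all probe sets. The 8 arrays entered 1 fit with 4 group means in limma 3.58.1, R 4.3.3 (lmFit and eBayes, two-sided, Benjamini-Hochberg adjusted over 14267 genes, threshold 0.05), and single-array signals are quantile-normalized intensities. The fit was also run on simulated data with planted differences larger than nearly all those of bright genes here. That run does not show what the fit can find at smaller sizes.

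Gene lists (44, with 764 genes, 668 tested) have no test; their counts stand beside those of all genes. Members, lists and naming rule were chosen with earlier results of these data known. Eligible for naming, though not all are named in the text, were Top1, the 12 genes in each direction with the smallest p among upper-half signals with separate arrays, the 3 members of each list with the smallest p and any other with an unadjusted p under 0.05, the 5 genes with the smallest p, any called under an alternative, and the 5 with the smallest p between knockdowns. Others were named after their values were seen, for their role or as exceptions. Promoter windows and their coordinates are those of RefSeq on GRCm38.p6.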

Additional observations from a re-analysis of the deposited data

How the results depend on the processing

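No gene was called between shTop1 coculture and mix in any setting but trended and robust variances, which called 3 (Rps27 higher, Zfp936 and ND5 lower). The 1170 genes with an unadjusted p under 0.05 became 2032 with every probe set by itself, and 760 to 1525 with 1 array left out, the lowest counts being 761 without shTop1 mix replicate 1 and 760 without shTop1 mix replicate 2. For the difference between knockdowns 614 such genes became 1230 with every probe set by itself, and no setting called a gene. With the replicate number as a block, 1187 genes had an unadjusted p under 0.05 and 0 were called. Deviations of same-numbered shTop1 arrays had a correlation of -0.007 over the tested genes. That gave no sign of pairing, but 1 correlation from 2 arrays a group cannot settle it. The share of higher genes among those with an unadjusted p under 0.05 was 62.4%, against 70.4% under median centring, 51.2% under the authors' scaling, 51.1% without coculture replicate 1 and 49.9% without coculture replicate 2. With a gene's probe sets averaged, the log2 difference turned for Aldoc (-0.03), Ctsl (-0.19), Cxcl12 (-0.22), Itgb1 (-0.15), Pfkfb3 (-0.05), Sox3 (0.16), Spred2 (0.11), Sqstm1 (-0.06), Top2a (-0.14) and Wdr33 (0.10). Top1 turned to -0.01 without shTop1 mix replicate 1. The other 84 genes of the text for which alternatives were run kept their sign in all of them. Much of that was fixed in advance. The block, the variance options, the signal filters and leaving out an shp53 array do not alter a gene's log2 difference. Leaving out 1 shTop1 array cannot turn a gene whose groups are separate. The cause of the changes between settings was not tested. With 2 arrays a group the median SE on the log2 scale was 0.16 over all genes and 0.343 in the dimmest of 4 signal bins, which limits what dim genes can show.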

Other observations

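Zinc finger genes as a family were examined after Zfp936, Zfp74, Zfp267 and Zfp281 had been seen among the lower genes, so this is a description of the same data. Among 317 tested genes whose symbol starts with Zfp, 199 (62.8%) lay below 0, beside 44.4% of all genes tested. Both coculture arrays lay below both mix arrays for 102 of them (32.2%, beside 16.9%) and above for 32 (10.1%, beside 24.5%). The median log2 difference was -0.10, between -0.13 and -0.04 with an array left out and between -0.13 and -0.07 in the other settings, and -0.06 on the shp53 arrays. At an unadjusted p under 0.05 (limma) there were 28 lower and 11 higher members of the 317. Among all genes tested 3.08% were lower and 5.12% higher at that p. None passed the adjusted threshold. The family of solute carriers, read for comparison, had 117 of 270 members below 0 (43.3%) and a median of 0.03.

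A few single genes outside the groups above had separate arrays. Stat2, a transducer of interferon signals, read 141 and 124 in the mixes and 173 and 205 in the cocultures, but its second probe set went the other way, at 121 and 139 against 96.7 and 117. Prc1, a protein of the spindle midzone, read 2794 and 2802 against 3231 and 3817. Edem1, which directs misfolded proteins out of the endoplasmic reticulum, read 1221 and 1212 against 1419 and 1626, while its second probe set gave 0.00. Tbx6, a mesoderm factor, was dim at 38.7 and 37 against 78.6 and 64.5. Their log2 differences were 0.47, 0.33, 0.32 and 0.70, with unadjusted p-values of 0.0145, 0.044, 0.0323 and 0.00403 and none past the threshold after limma's Benjamini-Hochberg adjustment.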
